A study of Mus musculus with 205 samples.

Results

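The 13 lead pairs of a library of mitochondrial base editors were measured in samples taken 14 d and 7 d after transfection. There was 1 pair for each protein that the mouse mtDNA encodes. They were found by the pair ID that the labels give to the 14-d samples of the 2-plasmid format, and each was matched to the screening sample with the same pair ID. This gave 39 samples at 14 d (3 for each pair) and 13 samples at 7 d (1 for each pair), which are 52 of the 205 samples of the series. The 3 empty-vector samples of 14 d and the 2 empty-vector samples of the screen served as background for off-target editing.

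All samples were NIH/3T3 cells, a line of mouse embryonic fibroblasts that the methods say was not authenticated. Each pair came as 2 plasmids, 1 for the L-strand editor arm, which co-expressed eGFP, and 1 for the H-strand arm, which co-expressed mCherry. Cells carrying both colours were sorted 24 h after transfection and then left to recover in medium with glucose, pyruvate and uridine, in every group. The tables hold mtDNA editing alone, so the cell line could not be checked against marker genes. The 14-d samples were sequenced in 1 run (NS1, a NovaSeq run) and the 7-d samples in 3 other runs (MS1, MS2 and MS3, MiSeq runs). The 7-d samples are labelled as the screen and the 14-d samples as a separate set. The labels do not say whether the samples of a pair share a transfection, sort or culture. The run, and any separate transfection, therefore changed together with the time point. Their effects and that of time cannot be told apart in any comparison of 14 d with 7 d. Words such as lost, left and kept compare these sets of samples and do not describe 1 culture followed over time.

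A DdCBE is a cytosine deaminase split into a pair of inactive parts, each carried to the mtDNA by its own TALE protein. The deaminase prefers a cytosine that follows a thymine and works on double-stranded DNA, and an inhibitor of uracil repair holds the product until it is read as thymine. In mitochondria TGA is a tryptophan codon, so a G-to-A change on the coding strand turns it into the stop codon TAA. A cell holds many copies of mtDNA, and the edited percentage is the share of copies over all cells of the sample. A lower share in every cell and fewer edited cells in the culture cannot be told apart in these values.

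Of the 13 targets, 12 were TGA tryptophan codons and 1 was a pair of cytosines in Nd4l. The cytosine edited at each TGA codon lies on the opposite strand and follows a thymine in all 12. Target codons and their surroundings were read from the mtDNA of GRCm38, the build that the submitters' processing notes name, with RefSeq gene models. None of the 13 target codons lies in a second coding sequence, although MT-Atp8 overlaps MT-Atp6 and MT-Nd4l overlaps MT-Nd4. The 7 sites printed here are those the results turn on, namely the largest losses (Nd4l, Atp8), the smallest (CoII, Nd3), the site on the other strand (Nd6) and the earliest and latest stop codons among the TGA targets (CoI, CoIII). Each is given 5′ to 3′ on the coding strand of its gene, with the target codon in capitals, or for Nd4l the adjacent cytosines of the target.
Nd4l: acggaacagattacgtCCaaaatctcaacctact
Atp8: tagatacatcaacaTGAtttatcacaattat
CoII: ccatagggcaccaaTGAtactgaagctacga
Nd3: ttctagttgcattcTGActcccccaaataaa
Nd6: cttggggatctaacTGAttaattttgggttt
CoI: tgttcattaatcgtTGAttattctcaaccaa
CoIII: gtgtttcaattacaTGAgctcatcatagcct

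In complex I the edits were G3007A in Nd1 (codon 86), G4002A in Nd2 (codon 30), G9526A in Nd3 (codon 23), G10213A in Nd4 (codon 16) and G11944A in Nd5 (codon 68), counted on the reference strand. Nd6 lies on the opposite strand of the reference, so its edit reads C13814T there (codon 86). For Nd4l the edits were C10146T and C10147T, which leave a valine codon as valine and turn glutamine codon 91 into TAA. The remaining edits were G14374A in Cytb (codon 77), G5344A in CoI (codon 6), G7323A in CoII (codon 104), G9043A in CoIII (codon 146), G8069A in Atp6 (codon 48) and G7791A in Atp8 (codon 9).

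On-target editing was lower at 14 d than at 7 d for all 13 stop edits. Over the 13 pairs it averaged 59.9% ± 10.6 at 14 d and 71.4% ± 11.5 at 7 d (SD over pairs, n = 13). The mean change, 14 d minus 7 d, was -11.5 percentage points ± 6.20 (SD, n = 13; exact sign-flip permutation test over pairs, two-sided, p = 0.000244, which is the smallest p that 13 pairs allow; Benjamini-Hochberg adjusted over the 6 tests made, p = 0.000488). Of the 39 samples of 14 d, 39 lay below the 7-d sample of their own pair. The test takes each pair as 1 value and says nothing of a shift that a sequencing run gives to all pairs at once. The authors chose the lead pairs from these same 7-d values, and the p does not allow for that selection.

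For a single pair the comparison is 3 samples with 1, and an exact permutation test cannot then go below p = 0.25. Changes of single pairs are therefore given as values without a test. The 3 samples of 14 d lay close together, with an SD of 0.104 to 1.49 percentage points by pair and a median of 0.205. The labels number them as repeats without saying whether these were separate cultures. The legends for the lead pairs at 14 d call them technical replicates, while a legend that compares formats speaks of biological ones. Each SD and range at 14 d may therefore leave out the spread between cultures. The 7-d samples of the lead pairs have no replicate. The nearest guide to their spread is the 2-plasmid-HHR format, in which 4 of the same pairs, with a self-cleaving ribozyme in the transcript, were measured in 3 samples each at 7 d in another run and at lower editing levels. There the SD was 1.47 to 2.38 percentage points and the distance between lowest and highest sample was 2.66 to 4.64. The change of 12 of the 13 lead pairs was larger than the widest of these distances, the exception being CoII.

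**Figure D1:**
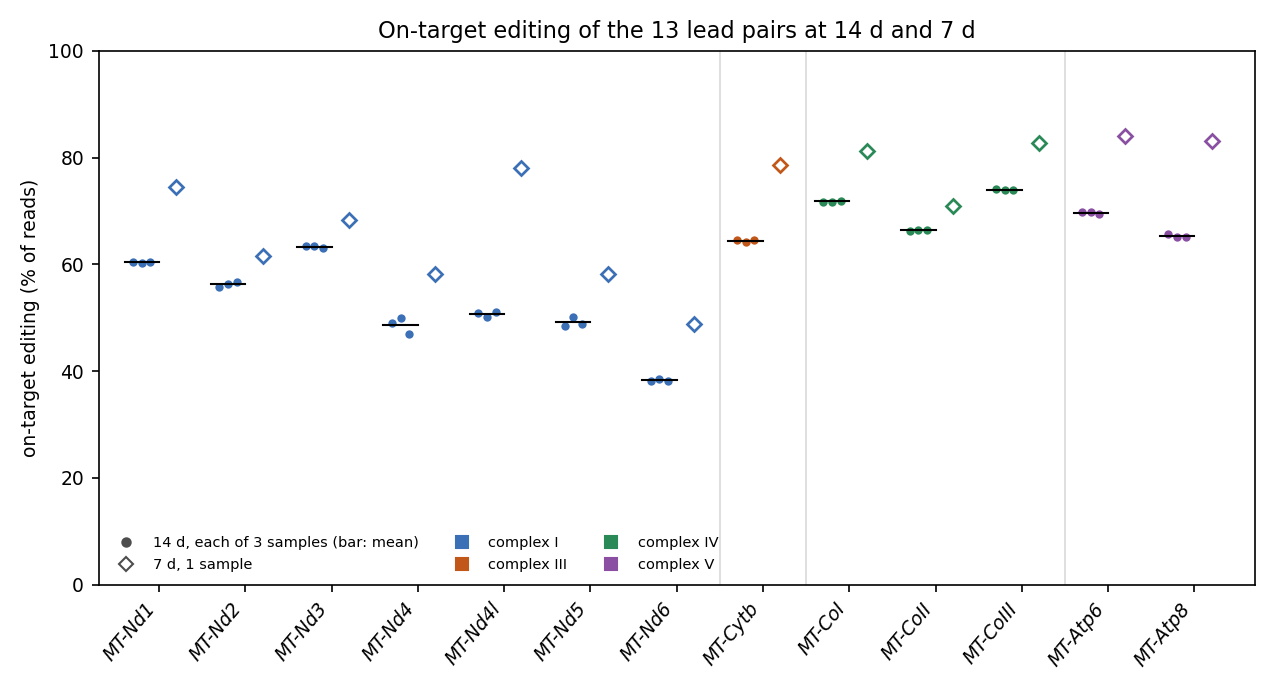
On-target editing (% of reads, y axis) of the 13 lead pairs by gene (x axis), with filled circles for the 3 samples of 14 d, a bar at their mean and an open diamond for the 7-d sample. Colours mark the respiratory complex, and in every gene the diamond lies above all 3 circles, by 4.38 (CoII) to 26.9 (Nd4l) percentage points from the highest circle.

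Complex I takes electrons from NADH and pumps protons, and 7 of its core subunits are encoded in mtDNA. Nd1, a subunit at the ubiquinone-binding end of the membrane arm, gave 60.5, 60.3 and 60.5% at 14 d, against 74.4% at 7 d. Its change of -14.0 percentage points left 81.2% of the 7-d level. Nd2, one of the proton-pumping subunits, gave 55.8, 56.3 and 56.6% at 14 d, against 61.5% at 7 d. Its change of -5.28 percentage points left 91.4% of the 7-d level. Nd3 carries a loop that reaches the quinone site, and its pair gave 63.4, 63.5 and 63.1% at 14 d, against 68.4% at 7 d. The Nd3 change was -5.07 percentage points and left 92.6%, so Nd2 and Nd3 kept more of their 7-d level than any other complex I edit, and more than all other pairs but CoII.

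Nd4 and Nd5 are further proton-pumping subunits, and both were screened in run MS3. The Nd4 pair gave 49.0, 49.9 and 47.0% at 14 d, against 58.3% at 7 d. Its change was -9.65 percentage points, and 83.4% of the 7-d level was left. The lowest of the 3 values came from a sample that stands apart in depth, with a mean coverage of 2561 while the other 38 samples of 14 d had 37126 to 96891. Without that sample the Nd4 pair averaged 49.4% at 14 d, a change of -8.83 percentage points with 84.8% left. The Nd5 pair gave 48.5, 50.1 and 48.9% at 14 d, against 58.2% at 7 d, so -9.04 percentage points with 84.5% left. Nd4 and Nd5 were thus close at both times, and their ranges at 14 d overlapped.

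Nd6, the complex I subunit that mtDNA encodes on its other strand, had the lowest editing of all pairs at both times. It gave 38.1, 38.5 and 38.2% at 14 d, against 48.9% at 7 d. The change of -10.6 percentage points was near the middle of the 13 (8th when pairs are ordered from the smallest loss). Yet it left 78.3% of the 7-d level, the 12th of the 13 shares kept.

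Nd4l, a small membrane subunit of complex I, lost most. Its first on-target value was 51.0, 50.2 and 51.1% at 14 d, against 78.0% at 7 d. That is a change of -27.2 percentage points, which left 65.1% of the 7-d level, with an unedited share of 49.3% on average at 14 d and 22.0% at 7 d. The tables hold a second on-target value for this pair, since 2 adjacent cytosines are edited. The second value was 48.4, 47.6 and 48.5% at 14 d, against 74.4% at 7 d, a change of -26.3 percentage points with 64.7% left. Both bases therefore had nearly the same share left. The first value exceeded the second by 2.59 ± 0.0376 percentage points at 14 d (SD, n = 3) and by 3.55 at 7 d, so second over first was 0.949, 0.949 and 0.949 at 14 d, against 0.954 at 7 d. The tables do not say which cytosine each column stands for, nor how often both lie on 1 molecule, and only the change in the glutamine codon makes the stop.

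Complex III passes electrons to cytochrome c, and Cytb, its haem-bearing subunit, is its only mtDNA-encoded member. The Cytb pair gave 64.6, 64.2 and 64.5% at 14 d, against 78.7% at 7 d. The change was -14.2 percentage points, and 81.9% of the 7-d level was left, close to the share kept by Nd1.

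Complex IV reduces oxygen, with CoI and CoII holding its redox centres and CoIII as a further core subunit. The CoI pair gave 71.7, 71.7 and 71.9% at 14 d, against 81.2% at 7 d, so -9.42 percentage points with 88.4% left. The CoII pair gave 66.3, 66.5 and 66.4% at 14 d, against 70.9% at 7 d, so -4.50 percentage points with 93.7% left. The CoIII pair gave 74.1, 73.9 and 73.9% at 14 d, against 82.8% at 7 d, so -8.78 percentage points with 89.4% left. CoII had the smallest loss of all 13 pairs, and the 3 complex IV edits held 3 of the 5 highest shares kept.

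Complex V makes ATP, with Atp6 as the subunit next to the rotating ring and Atp8 as a small subunit of the same membrane sector. The Atp6 pair gave 69.8, 69.8 and 69.5% at 14 d, against 84.1% at 7 d, so -14.4 percentage points with 82.9% left. The Atp8 pair gave 65.7, 65.1 and 65.1% at 14 d, against 83.2% at 7 d, so -17.9 percentage points with 78.5% left. These 2 pairs were the highest of the 13 at 7 d, and their losses in percentage points were the 11th and 12th in size when ordered from the smallest.

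**Figure D2:**
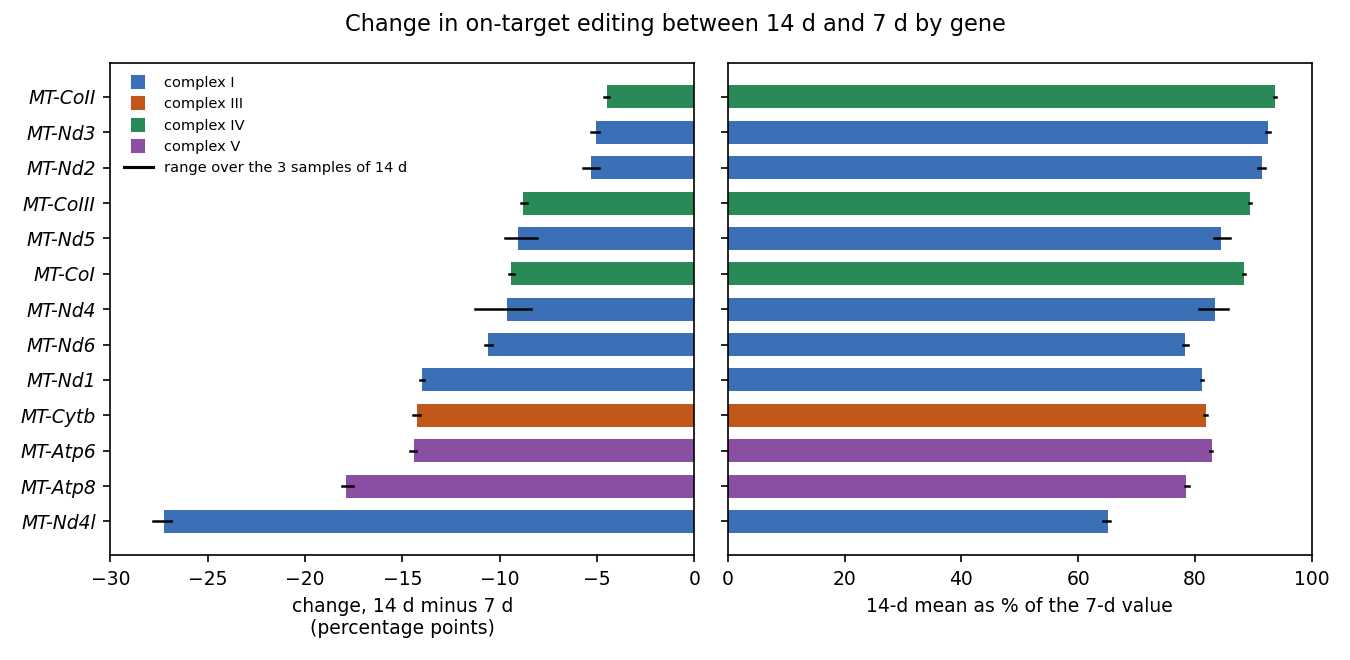
Left, change in on-target editing, 14 d minus 7 d, in percentage points; right, 14-d mean as % of the 7-d value, for each gene (y axis, smallest loss at the top), with bars coloured by complex and black lines for the range over the 3 samples of 14 d. The changes run from -4.50 for CoII to -27.2 percentage points for Nd4l, and the shares left run from 93.7 to 65.1%.

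Losses did not separate complex I from the other complexes. The mean change was -11.6 percentage points ± 7.57 for the 7 complex I pairs and -11.5 ± 4.85 for the 6 pairs of complexes III, IV and V (SD over pairs). The difference was -0.01 percentage points (exact permutation test over 1716 arrangements of the pairs, two-sided, p = 0.998). Nd4l carried much of the complex I mean, since without it the 6 remaining pairs averaged -8.94 ± 3.37 percentage points, and the difference from the other complexes became 2.60 (exact permutation p = 0.342). As these tests were made on few pairs, they do not show that the complexes lose edits alike. Within the other complexes, the 3 complex IV pairs averaged -7.56 ± 2.67 percentage points and the 2 complex V pairs -16.2 ± 2.47, and their ranges did not overlap. With 3 pairs against 2 an exact permutation test cannot go below p = 0.1, so that difference was not tested. The screening runs were spread unevenly over the complexes. Run MS3 held Nd4, Nd4l and Nd5 of complex I and Atp8 of complex V, but no pair of complexes III or IV. The mean share of the 7-d level left was 82.4% in complex I, 81.9% for the single complex III pair, 90.5% in complex IV and 80.7% in complex V.

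The order of losses depended in part on the scale. CoII, Nd3 and Nd2 had the 3 smallest losses in percentage points, as a share of the 7-d level and on the log2 odds scale, and Nd4l had the largest on each. Log2 odds are the logarithm of edited over unedited copies and weigh a given loss more heavily where nearly all copies were edited. On that scale the change was -0.30 for CoII, -0.33 for Nd3 and -0.32 for Nd2, against -1.78 for Nd4l, -1.40 for Atp8 and -1.20 for Atp6. Nd6 moved most between scales, being 8th in percentage points, 12th by share left and 6th by log2 odds (-0.63).

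Each pair was ranked by its on-target level, with 1 the highest of the 13. At 14 d the order was CoIII, CoI, Atp6, CoII, Atp8, Cytb, Nd3, Nd1, Nd2, Nd4l, Nd5, Nd4 and Nd6. Of the 12 neighbours in this order, 11 had 3 samples each whose ranges did not overlap, and only Nd5 and Nd4 did overlap. The gap between Nd4l and Nd5 was as small as 0.0747 percentage points. These gaps are set against the spread of repeats that may be technical, within run NS1 alone. Compared with their rank at 7 d, 10 of the 13 pairs were within 2 places. The others were CoII (4th at 14 d, 8th at 7 d), Nd4l (10th at 14 d, 6th at 7 d) and Atp8 (5th at 14 d, 2nd at 7 d). More than 70% of copies were edited with 2 pairs at 14 d and with 8 pairs at 7 d, and less than 50% with 3 pairs at 14 d (Nd4, Nd5 and Nd6) and with 1 at 7 d (Nd6).

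The lead pairs had been selected by the authors among 4 pairs per gene, from the 7-d on-target and off-target values themselves. At 7 d the lead was above the median of the other 3 pairs of its gene in on-target editing for 8 of 13 genes, by up to 37.5 percentage points (CoIII), and below it for 5, by down to -20.0 (Nd5). In off-target editing the lead was below that median for 11 genes and above it for Nd4l and Nd5. The other pairs of a gene were sequenced partly or wholly in other runs. No repeat of the 7-d measurement exists for the leads in these tables, and the part that selection on those values has in the lower 14-d values was not tested.

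By screening run, the 7 pairs of MS1 changed by -9.46 percentage points on average, with 7 of 7 lower (exact sign-flip permutation p = 0.0156, the smallest that 7 pairs allow). The 2 pairs of MS2 (Nd6 and CoI) changed by -10.0 and the 4 pairs of MS3 (Nd4, Nd4l, Nd5 and Atp8) by -16.0. With 2 and 4 pairs the exact test cannot go below p = 0.5 and p = 0.125. The runs also differed in depth, since mean coverage at 7 d was 935 to 2064 for the pairs of MS1, 610 to 666 for those of MS2 and 9702 to 18082 for those of MS3. The 2 largest losses, Nd4l and Atp8, thus belonged to the deeply sequenced run, and the part of the run in them was not tested.

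Off-target editing was also lower at 14 d. The deposited measure averages C:G-to-T:A changes across the mitochondrial genome. It was 0.138% ± 0.0610 at 14 d and 0.270% ± 0.0712 at 7 d (SD over pairs, n = 13). The mean change was -0.132 percentage points, with 13 of 13 pairs lower (exact sign-flip permutation p = 0.000244, adjusted p = 0.000488). As for on-target editing, the p says nothing of a shift between runs and does not allow for the selection of leads on 7-d values. All 39 samples of 14 d lay below the 7-d sample of their pair. The share of the 7-d off-target level left ran from 23.4% (Nd4l) to 84.9% (CoII), with a median of 50.7%, whereas the on-target share left had a median of 83.4%. In each of the 13 pairs the deposited off-target average kept a smaller share than the on-target base. That average includes the background, which was also lower at 14 d. With the empty vector of the own run subtracted, the order held in 5 of 9 pairs and was the other way in 4 (Cytb, CoI, CoII and CoIII).

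**Figure D3:**
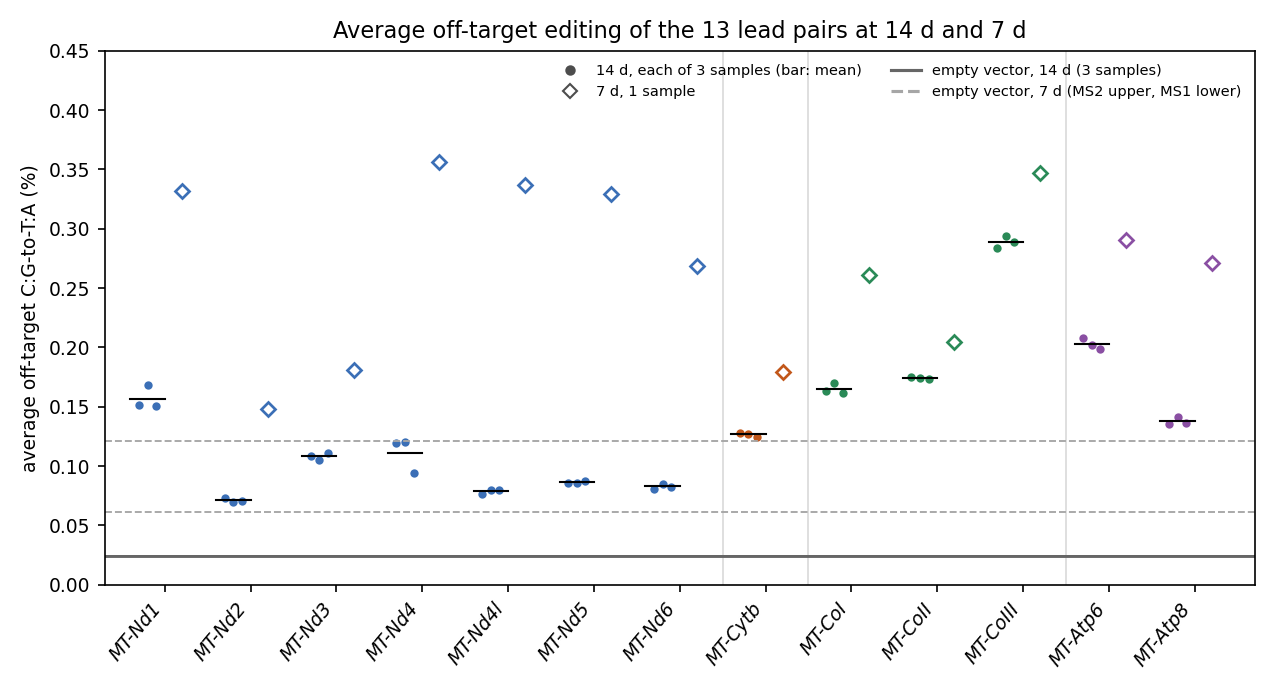
Off-target average, C:G-to-T:A changes over all of the mtDNA (%, y axis), of the 13 lead pairs by gene (x axis), drawn as for on-target editing, with solid lines for the 3 empty vectors of 14 d and dashed lines for the 2 empty vectors of 7 d. All 39 circles lie below the diamond of their pair, and the empty-vector lines of 14 d lie below those of 7 d.

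Among the complex I pairs the off-target average was lowest relative to 7 d for those of run MS3 and for Nd6. Nd4l gave 0.0764, 0.0801 and 0.0797% at 14 d, against 0.337% at 7 d. Nd5 gave 0.0859, 0.0857 and 0.0877% at 14 d, against 0.329% at 7 d. Nd4 gave 0.119, 0.120 and 0.0943% at 14 d, against 0.356% at 7 d, the last 14-d value again being the shallow sample. These 3 pairs, all of run MS3, and Nd6 (0.0810, 0.0852 and 0.0822% at 14 d, against 0.269% at 7 d) had the 4 smallest shares left, 23.4 to 31.2%.

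Nd1, Nd2 and Nd3 gave less of a difference. Nd1 had 0.151, 0.168 and 0.150% at 14 d, against 0.332% at 7 d. Nd2 had 0.0733, 0.0698 and 0.0709% at 14 d, against 0.148% at 7 d, the lowest off-target pair at both times. Nd3 had 0.108, 0.105 and 0.111% at 14 d, against 0.181% at 7 d. The shares left were 47.2, 48.2 and 59.8% for Nd1, Nd2 and Nd3.

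In complexes III and IV more of the 7-d off-target average was left. Cytb gave 0.128, 0.127 and 0.125% at 14 d, against 0.179% at 7 d. CoI gave 0.163, 0.170 and 0.161% at 14 d, against 0.261% at 7 d. CoII gave 0.175, 0.174 and 0.173% at 14 d, against 0.205% at 7 d. The CoIII pair had the highest off-target average at 14 d and the second highest of the leads at 7 d, with 0.284, 0.294 and 0.288% at 14 d, against 0.347% at 7 d. Shares left were 70.6% for Cytb, 63.1% for CoI, 84.9% for CoII and 83.2% for CoIII. In complex V, Atp6 gave 0.208, 0.202 and 0.199% at 14 d, against 0.290% at 7 d, and Atp8 gave 0.135, 0.141 and 0.136% at 14 d, against 0.271% at 7 d. Atp6 kept 69.8% and Atp8, from run MS3, 50.7%.

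The background moved in the same direction. Empty-vector cells had 0.0240, 0.0240 and 0.0235% at 14 d, against 0.0616% in run MS1 and 0.121% in run MS2 at 7 d. The tables used here list no empty vector for run MS3. Mean coverage was 31439 to 40402 in the empty vectors of 14 d and 524 to 560 in those of 7 d. The deeper 14-d run thus had the lower background. The empty vectors of MS1 and MS2 differed in background at nearly the same depth (560 in MS1, 524 in MS2). The part of depth in the background was not tested. On-target values of empty vectors are not in the tables.

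Against the empty vector of the own run, off-target editing gave opposite directions on a difference and on a ratio scale. For the 9 pairs whose screening run held an empty vector, the excess over it averaged 0.129 percentage points ± 0.0669 at 14 d and 0.171 ± 0.0718 at 7 d (SD over pairs). The mean change of -0.0419 percentage points passed the test (7 of 9 lower, exact sign-flip permutation p = 0.0156, adjusted p = 0.0188). The 7 pairs of MS1 share 1 empty-vector sample, and the 2 pairs of MS2 share another. The 9 differences are therefore not independent, and the p does not measure the error of these single samples. Set against the mean of both screening empty vectors, all 13 pairs gave -0.0643 (exact sign-flip permutation p = 0.0154). That mean is not the background of any pair's own run, and the 4 pairs of MS3 take it wholly from other, shallower runs. Among the 9 pairs set against their own run, CoII and CoI were the exceptions. For CoII the excess was 0.150 percentage points at 14 d and 0.143 at 7 d. For CoI it was 0.141 at 14 d and 0.140 at 7 d, a change of 0.00116 whose direction rests on the single empty vector of run MS2. Nd1 had the largest difference, with an excess of 0.133 percentage points at 14 d and 0.270 at 7 d.

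As a fold over the empty vector, the same 9 pairs were higher at 14 d. The fold was 2.99 (Nd2) to 12.1 (CoIII) at 14 d and 2.15 (CoI) to 5.64 (CoIII) at 7 d, with medians of 6.57 at 14 d and 2.94 at 7 d. On the log2 scale the mean change of the fold was 0.84, with 9 of 9 pairs higher (exact sign-flip permutation p = 0.00391, adjusted p = 0.00586, the unadjusted value being the smallest that 9 pairs allow). All pairs of a screening run were divided by the same single 7-d empty vector. The 9 folds are therefore not independent, and the p does not measure the error of these denominators. The denominator was 2.58 times higher in run MS1 and 5.09 times higher in run MS2 than the mean of the 14-d empty vectors. A lower numerator over a still lower denominator gave these higher folds.

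**Figure D4:**
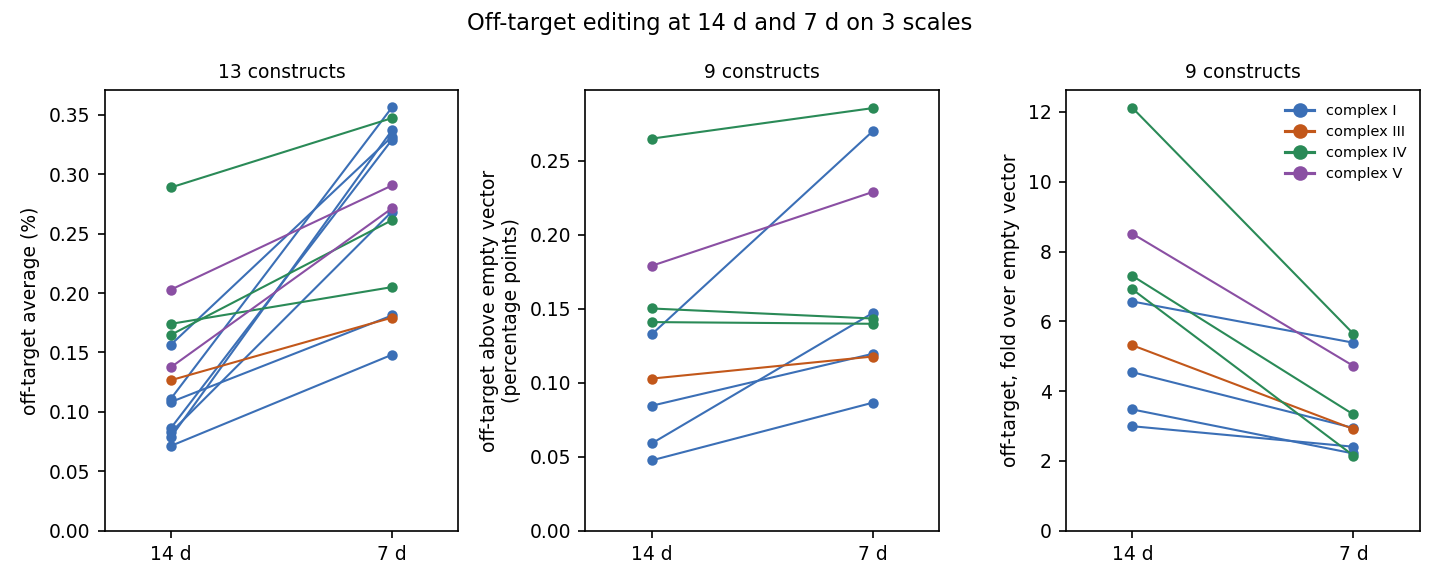
Off-target editing of each lead pair at 14 d (left end of each line) and 7 d (right end), as the deposited percentage for 13 pairs, in percentage points above the empty vector of the own run for 9 pairs and as a fold over that empty vector for the same 9. Lines rise towards 7 d in all 13 pairs on the first scale and in 7 of 9 on the second, and fall towards 7 d in all 9 on the third.

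On-target per off-target editing, both from the same sample, was higher at 14 d for all 13 pairs. The ratio had a median of 462 at 14 d and 289 at 7 d. Its mean change was 0.78 on the log2 scale (exact sign-flip permutation p = 0.000244, adjusted p = 0.000488). Here too the p says nothing of a shift in background between runs and does not allow for the selection of leads. The ratio at 14 d over that at 7 d was 3.21 for Nd5, 2.78 for Nd4l, 2.67 for Nd4 and 2.54 for Nd6, against 1.07 for CoIII and 1.16 for Cytb, with CoII between these. Nd2 had the highest ratio at 14 d (789, and 416 at 7 d), and CoIII the lowest at 14 d (256, and 238 at 7 d).

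For the 9 pairs with an empty vector in their screening run, the mean change of this ratio was 0.54 on the log2 scale (exact sign-flip permutation p = 0.00391). With that empty vector subtracted from the off-target value, the mean change over the same 9 pairs was 0.27 (exact sign-flip permutation p = 0.133), with 5 pairs higher at 14 d and 4 lower. The 4 complex I pairs among them were all higher, by 0.72 (Nd1), 0.73 (Nd2), 0.39 (Nd3) and 0.97 (Nd6) on the log2 scale. Of the 5 pairs of other complexes, Atp6 was higher by 0.08, and Cytb (-0.09), CoI (-0.19), CoII (-0.16) and CoIII (-0.05) were lower at 14 d. This grouping by complex was seen in the values and not tested. The values of CoI and Nd6 rest on the single empty vector of run MS2, whose background was above that of run MS1.

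The on-target base itself may be part of the deposited off-target average, since the positions that enter it are not stated. If all 5989 C:G pairs of the mtDNA entered with equal weight, the target would make up 4.28 to 13.2% of the off-target average at 14 d and 2.73 to 7.33% at 7 d in the 12 pairs with 1 target base. For Nd4l, with both target bases counted, it would make up 20.97% at 14 d and 7.55% at 7 d.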

How the data were processed

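Members and lists were chosen with earlier results of these data known. The authors made Nextera XT libraries from long-range PCR products of mtDNA, trimmed reads (Trim Galore with cutadapt), aligned them to chromosome M of GRCm38 and piled them up with SAMtools. In the percent columns the authors deposited how many reads carried the edit at the target base (on-target) and C:G-to-T:A changes averaged across the mitochondrial genome (off-target). The deposited coverage column gives mean sequencing depth per sample and was not normalized. Depth at the target is not given, so no binomial interval was computed.

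Samples were grouped by their labels. All 13 lead pairs are named. The 14-d value is the mean of 3 samples, and the SD uses n - 1. Exact sign-flip and two-group permutation tests over pairs (two-sided) were run with python 3.11.15 and numpy 2.4.6, checked on simulated data against scipy 1.17.1, and adjusted by Benjamini-Hochberg over 6 tests. The threshold was 0.05. Target codons were located by a script in the RefSeq mtDNA (16299 bp). Figures used matplotlib 3.10.9. From the tables that compare formats, only the 12 samples of the 2-plasmid-HHR format were used, for their spread, and 74 rows were left out. Alternatives covered the scale, the summary, Nd4l, the screening run, coverage, the empty vector and single replicates.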

Additional observations from a re-analysis of the deposited data

How the results depend on the processing

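Of 52 alternatives over the 6 tests, 38 kept both direction and side of the threshold. Screening run MS2 alone (2 pairs) gave an on-target change of -10.0, an off-target change of -0.141, an excess change of -0.0435 (1 pair each way, p = 1 in the exact permutation test) and a log2 change in fold of 1.17, and run MS3 alone (4 pairs) gave an on-target change of -16.0 and an off-target change of -0.220. Runs of 2 and 4 pairs cannot reach the threshold. The log2 change of the on-target per off-target ratio was 0.54 over the 9 pairs with an empty vector in their run (chosen after seeing the data) and 0.27 over the same 9 with the off-target excess, which did not pass. The difference between complex I and the others had no stable sign. It was 0.18 in log2 odds, 2.37 within run MS1, 2.60 without Nd4l, 0.12 with the second Nd4l column, 0.10 without the shallow Nd4 sample (also chosen after seeing the data) and -0.19 to 0.08 without 1 replicate number, with exact permutation p of 0.342 or more in each. Leaving out a replicate number gave -11.6 to -11.5 for the on-target change and 0.77 to 0.79 for the ratio. With the replicate block, in which each 14-d sample was set against the empty vector of its own number, the excess changed by -0.0419 and the log2 fold by 0.83, so no call changed. The numbers are not known to pair samples. Of the 7-d samples, 4 of 13 had a mean coverage under 1000, and the on-target change was -12.3 over the other 9.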

Other observations

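The stop edits lie at very different depths in their reading frames, and the shares kept did not follow that position in an evident order. The earliest stops, with 0.971% (CoI) and 3.27% (Nd4) of the codons before them, kept 88.4 and 83.4% of the 7-d on-target level. Late stops, with 49.1% (Nd6), 55.6% (CoIII) and 90.9% (Nd4l) of the codons before them, kept 78.3, 89.4 and 65.1%. Nd4l, which kept least, would lose only the last codons of its protein, and Atp8, which kept the 3rd least, lies at codon 9 of its frame. These are values without a test.

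The unedited share, which is the complement of the on-target value, was 1.14 (Nd2) to 2.24 (Nd4l) times as high at 14 d as at 7 d, with a median of 1.50. It was more than 2 times as high for Nd4l and Atp8 alone (2.06 for Atp8) and 1.91 times for Atp6.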
